A study of Mus musculus with 38 samples.

Results

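Levels of the Hedgehog pathway genes were examined in cells of the mouse bone-lining niche, with and without myeloma. The set was defined by gene symbol and named 8 genes, Hhip, Ptch1, Smo, Gas1, Sufu, Gli1, Gli2 and Gli3, of which 7 were measured among the 13260 genes of the deposited table, and Sufu was not analysed here. Hhip was chosen by measured values, namely its low RPKM (a read count scaled by transcript length and by library size) in stromal progenitors of myeloma-bearing mice. Its values in those cells are therefore given as a description without a test. For the other genes that contrast is given by values and by counts of genes called, with no p for a single gene. The other 7 names came from the pathway.

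RNA-Seq had been performed on 38 libraries of 100 FACS-sorted cells each, from C57Bl/KaLwRijHsd mice of 8 to 10 weeks that received PBS vehicle (healthy) or 1000000 cells of the myeloma line 5TGM1-GFP intravenously and were culled on day 23. Endothelial cells (CD31+) and stromal progenitors (Sca1+ALCAM-) gave 5 libraries from healthy and 5 from myeloma-bearing mice, and osteoprogenitors (ALCAM+Sca1-) gave 4 and 4. Myeloma cells (GFP+) came only from myeloma-bearing mice, with 5 libraries from the bone lining and 5 from the central bone marrow. No other treatment was given, all tumours came from a single cell line, and libraries are named by the letter of their title, which the labels do not tie to a mouse, so the spread between libraries may be partly technical.

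Hedgehog ligands bind the receptor Ptch1, which in the absence of ligand holds back the membrane protein Smo. Once released, Smo acts at the primary cilium on the Gli transcription factors, of which Gli1 is an activator and itself a target gene, Gli2 is mainly an activator and Gli3 is mainly a repressor. Hhip encodes a membrane-bound decoy that captures the ligands and is, like Ptch1, switched on by the pathway it restrains, whereas Gas1, Cdon and Boc are co-receptors that help the ligand to bind. In bone the pathway is best known from Indian hedgehog of growth plate cartilage, which drives bone-forming cells, and from Gli1, a marker of skeletal progenitors.

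Hhip lies on chromosome 8 (GRCm38, 79965851 to 80058006, minus strand) and Smo on chromosome 6 (29735503 to 29761365, plus strand), and both are protein-coding. The 250 bases before their RefSeq starts (GRCm38.p6) are shown because Hhip was the gene with the lowest and Smo the gene with the highest values in myeloma-bearing relative to healthy stromal progenitors among the measured members, on the log2(RPKM + 1) scale. Capitals mark the letters CCACCC or, on the other strand, GGGTGG, which form the centre of the Gli consensus GACCACCCA.
Hhip, chr8:80058009-80058258, minus strand: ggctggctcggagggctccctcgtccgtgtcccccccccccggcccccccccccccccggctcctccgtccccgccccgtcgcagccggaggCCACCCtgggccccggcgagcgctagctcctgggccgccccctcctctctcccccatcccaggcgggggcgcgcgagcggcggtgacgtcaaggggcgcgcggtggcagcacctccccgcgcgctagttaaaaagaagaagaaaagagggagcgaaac
Smo, chr6:29735247-29735496, plus strand: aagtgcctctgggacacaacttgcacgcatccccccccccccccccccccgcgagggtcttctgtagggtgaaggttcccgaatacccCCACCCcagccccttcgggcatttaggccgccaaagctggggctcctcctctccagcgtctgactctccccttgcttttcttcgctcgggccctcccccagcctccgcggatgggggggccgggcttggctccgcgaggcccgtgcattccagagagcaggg
Among 32851 RefSeq promoters cut to the same 250 bases, 28.1% held the 6 letters on either strand and 0.225% held the whole consensus, whose match always contains the 6 letters. Promoters were found for Hhip, Smo, Gas1, Ptch1, Gli2, Gli3 and Sufu, and 4 of these 7 (Hhip, Smo, Gli2 and Gli3) held the 6 letters, while 0 of 7 held the whole consensus in this window. These are matches of letters only, and binding was not measured.

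Reads on genes ran from 9735031 to 34883291 per library. The labelled cell types were checked against their markers. Summed RPKM of 7 endothelial markers lay between 2060 and 4380 in endothelial libraries and at or below 29.7 in all others, and 7 myeloma markers lay between 3970 and 10800 in myeloma cells and at or below 486 elsewhere. Bglap (osteocalcin) spanned 6210 to 54800 RPKM in osteoprogenitors and 14.1 to 197 in stromal progenitors, and Ly6a, which encodes Sca1, spanned 776 to 2870 in stromal progenitors and 0.986 to 95.2 in osteoprogenitors. The list of 6 stromal markers, which includes Ly6a, summed higher still in endothelial cells (2720 to 8970). Neutrophil markers stood out in a pair of stromal progenitor libraries, L of the healthy and E of the myeloma-bearing group, where their summed RPKM was 7230 and 8060 against at most 180 in the other 8, so the counts of genes called and the differences that moved most are also given without them.

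Hhip was a gene of the mesenchymal populations. Its RPKM was highest in osteoprogenitors of myeloma-bearing mice (24.2 ± 12.4, SD, n = 4), followed by osteoprogenitors of healthy mice (17.7 ± 7.69, n = 4), stromal progenitors of healthy mice (13.9 ± 6.1, n = 5) and stromal progenitors of myeloma-bearing mice (1.54 ± 0.865, n = 5). Neighbouring groups in this order overlapped, except that every stromal progenitor library of myeloma-bearing mice lay below every library of the other 3 mesenchymal groups. In endothelial cells the highest value was 0.0251 RPKM, which stood for 4 reads, and in myeloma cells it was 0.00972, which stood for 2 reads, with no read in any of the 5 libraries from the central marrow.

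In stromal progenitors of healthy mice Hhip was at 12.4, 9.61, 8.69, 14.9 and 23.9 RPKM in libraries C, L, M, N and O. In myeloma-bearing mice it was at 0.822, 2.22, 0.705, 1.29 and 2.66 RPKM in libraries D, E, G, I and J. The groups were far apart, the highest myeloma-bearing value being well below the lowest healthy one, and the values rested on 102 to 522 reads per library against 1489 to 4851 in healthy mice, reads without molecular identifiers that may include duplicates. The ratio of the means, healthy to myeloma-bearing, was 9.03, and it stayed between 7.4 and 11.0 when any 1 of the 10 libraries was left out. Without both libraries that carried neutrophil markers the means were 15.0 and 1.37 RPKM, a ratio of 10.9. On the log2(RPKM + 1) scale, which understates changes of low genes, the difference was -2.53. With 100 cells pooled per library, fewer Hhip-expressing cells and less Hhip RNA per cell cannot be told apart.

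Hhip had been selected for its separation of these libraries, so summed markers of other mesenchymal cells are set beside it as a description. The sum of 8 osteoprogenitor markers, a population in which Hhip was abundant, ran from 1950 to 2980 RPKM in healthy and from 938 to 3360 in myeloma-bearing stromal progenitors, against 10300 to 69500 in osteoprogenitors. The 6 measured of 8 chondrocyte markers summed to 76.6 to 520 and 104 to 374 RPKM, respectively. Neither list had a marker at 0 throughout the healthy group, and 1 osteoprogenitor marker, Dkk1, was at 0 in all myeloma-bearing libraries. The 4 tendon markers summed to 291 to 1560 and 613 to 1430 RPKM, 4 of 5 smooth muscle and pericyte markers to 0.114 to 263 and 50.4 to 562, and 2 of 4 adipocyte markers to 0.172 to 15.9 and 0.781 to 522. All of these ranges overlapped between healthy and myeloma-bearing mice, and their part in the Hhip difference was not tested.

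**Figure D1:**
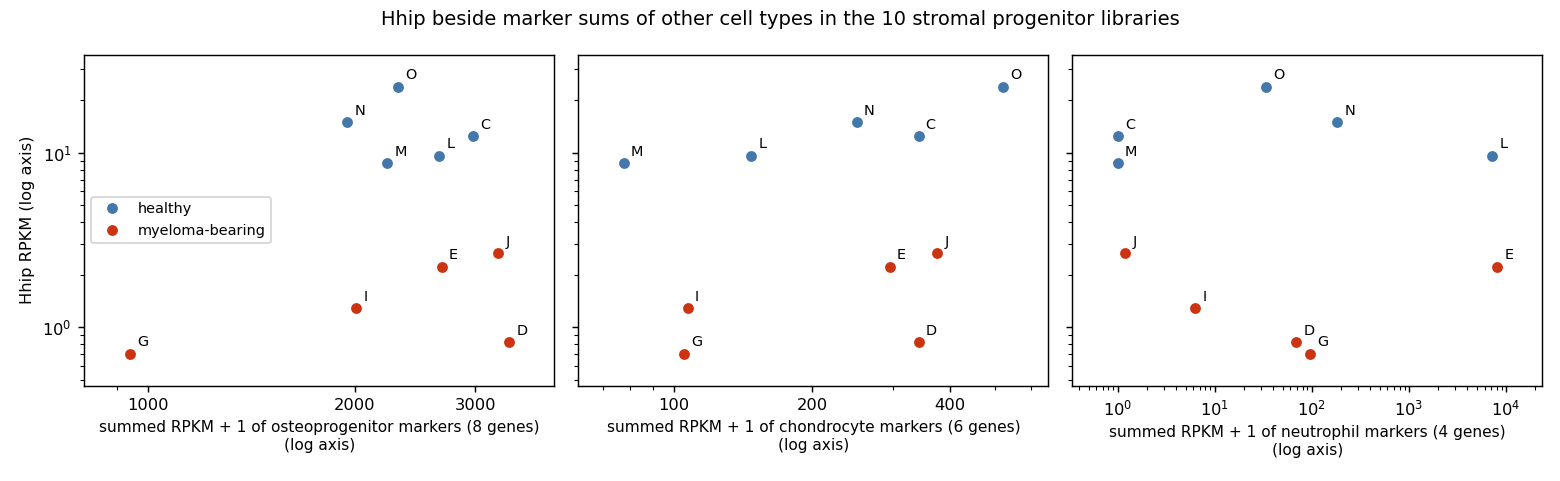
Hhip RPKM (vertical, log axis) against the summed RPKM + 1 of osteoprogenitor, chondrocyte and neutrophil markers (horizontal, log axes) in the 10 stromal progenitor libraries, each point 1 library with its letter, blue for healthy and red for myeloma-bearing mice. The red points lie between 0.705 and 2.66 RPKM and the blue points between 8.69 and 23.9, while the marker sums of both colours overlap; libraries L and E stand apart at the right of the neutrophil panel.

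In osteoprogenitors Hhip was not called between myeloma-bearing and healthy mice. Healthy libraries L, M, N and O had 28.3, 10.1, 17.4 and 14.8 RPKM, and myeloma-bearing libraries D, G, I and J had 23.4, 9.12, 39.5 and 25.0. The groups overlapped along most of their range, and the difference on the log2(RPKM + 1) scale was 0.36 ± 0.68 (SE), with an adjusted p of 0.998 (limma, Benjamini-Hochberg over all genes tested). It ranged from 0.08 without myeloma-bearing library I to 0.75 without library G, and was 0.14 and 0.61 without healthy library M and L, and was not called in any of these. Whether the difference in stromal progenitors departs from that in osteoprogenitors was not tested, since the former had served to choose the gene.

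The other members were then compared between healthy and myeloma-bearing stromal progenitors. Of the 6 members other than Hhip 5 passed the filter on low values (4 or more of the compared libraries above 1 RPKM), and 0 of these 5 met the criteria of adjusted p below 0.1 and an absolute log2 difference above 1. Among all genes 0 of 8747 met them (0.0%). An unadjusted p below 0.05 in limma was held by 437, about the number that threshold gives where nothing differs. Voom-limma on all 38 libraries called 82 genes, 0 of them among these 5. Without both libraries that carried neutrophil markers 0 of 5 were called again. Every myeloma-bearing library lay below every healthy one for 30 of the 8747 genes tested (0.343%), from which nothing is read for Hhip, as it was selected on this contrast.

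Smo, the signal transducer of the pathway, was not called in this contrast, and its groups overlapped. It was at 7.93, 7.39, 2.39, 0.772 and 13.8 RPKM in healthy libraries C, L, M, N and O, and at 24.4, 32.9, 7.56, 25.3 and 25.9 in myeloma-bearing libraries D, E, G, I and J. All myeloma-bearing libraries but G exceeded the highest healthy library, and the means were 6.45 ± 5.13 and 23.2 ± 9.38 RPKM (SD, n = 5 each), a difference of 1.92 on the log2(RPKM + 1) scale. Without both libraries that carried neutrophil markers the means were 6.21 and 20.8.

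Gli2 had 1.63, 0.201, 0.0969, 2.34 and 4.72 RPKM in the healthy and 7.67, 4.11, 0.428, 6.56 and 9.46 RPKM in the myeloma-bearing stromal progenitors, in the same order of libraries. Library G was again the low value of the myeloma-bearing group, and the groups overlapped (difference 1.25, and 1.04 without both libraries that carried neutrophil markers). Gas1 was at 326, 202, 225, 278 and 354 RPKM in healthy and 399, 448, 283, 514 and 344 in myeloma-bearing mice, by far the most abundant member in these cells and overlapping between the groups (difference 0.52, and 0.36 without both of these libraries).

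The remaining members were irregular or near background in these cells. Gli1 was at 4.46, 0.112, 9.83, 6.67 and 0.0367 RPKM in the healthy and at 14.9, 3.36, 0.212, 0.0 and 1.31 in the myeloma-bearing group, so that each group held libraries with 319 to 775 reads and libraries with 13 or fewer, with library J between them at 85. Gli3 was likewise patchy, at 4.5, 0.146, 9.66, 5.01 and 5.73 RPKM in healthy and 5.21, 6.98, 11.6, 0.00476 and 0.0737 in myeloma-bearing libraries. The differences of Gli1 and Gli3 (-0.28 and -0.4) had no stable sign, ranging from -0.9 to 0.12 and from -0.92 to 0.06 when any 1 library was left out, and were -0.85 and -1.2 without both libraries that carried neutrophil markers. Ptch1, the receptor and a target gene, did not exceed 0.165 RPKM (14 reads) in any of the 10 stromal progenitor libraries.

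**Figure D2:**
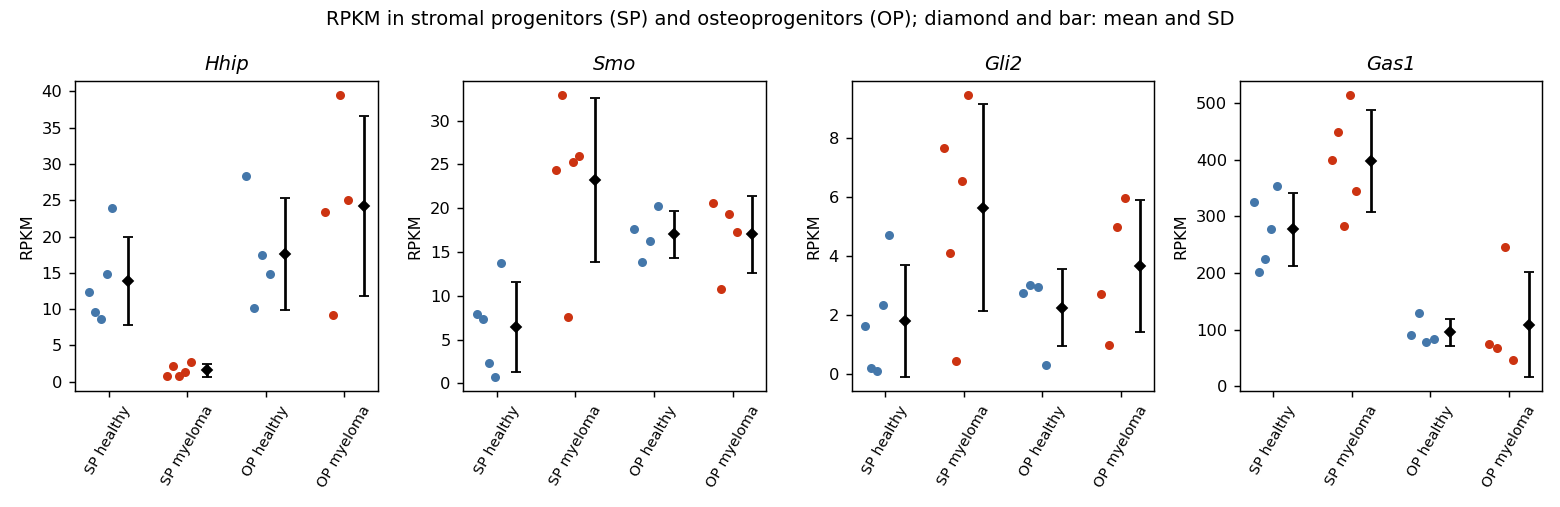
RPKM (vertical, linear axis) of Hhip, Smo, Gli2 and Gas1 in stromal progenitors (SP) and osteoprogenitors (OP) of healthy (blue) and myeloma-bearing (red) mice, each point 1 library, with the mean and SD in black. Hhip in myeloma-bearing stromal progenitors stays at or below 2.66 RPKM while it reaches 9.12 to 39.5 in myeloma-bearing osteoprogenitors, and Smo in stromal progenitors has means of 6.45 and 23.2.

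Osteoprogenitors of myeloma-bearing and healthy mice were compared in the same way. Here 6 members passed the filter and 0 of 6 were called, with 0 at an unadjusted p below 0.05 in limma and 0 called by voom-limma. Among all genes limma called 1 of 8664 (0.0115%) and voom-limma on all 38 libraries called 28. Smo was at 17.6, 13.9, 16.3 and 20.3 RPKM in healthy libraries L, M, N and O and at 20.6, 10.8, 19.3 and 17.3 in myeloma-bearing libraries D, G, I and J, the steadiest of the members in these cells. Gas1 was at 89.9, 130, 78.4 and 83.2 RPKM and at 74.8, 68.4, 246 and 46.7, respectively, with library I far above the other 7. Differences on the log2(RPKM + 1) scale were -0.03 ± 0.63 (SE) for Smo and -0.09 ± 0.52 for Gas1, both smaller than their SE.

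Gli3 reached its highest values in osteoprogenitors of myeloma-bearing mice, with 5.48, 8.25, 19.4 and 9.2 RPKM against 4.72, 3.99, 9.19 and 0.0129 in healthy mice. The difference of 1.35 ± 0.97 had an adjusted p of 0.981 in limma. It was 0.67 without healthy library O, in which Gli3 was at 0.0129 RPKM, and 3.3 and 3.08 with voom-limma, and Gli3 was not called in any of these. Gli2 was at 2.73, 3.01, 2.95 and 0.3 RPKM in healthy and at 2.71, 0.997, 4.98 and 5.96 in myeloma-bearing libraries, and the groups overlapped.

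Gli1 was listed at 0.0, 0.0432, 7.69 and 0.0 RPKM in the healthy and at 0.0, 0.0445, 2.78 and 7.48 RPKM in the myeloma-bearing osteoprogenitors. It did not pass the filter and was compared by an exact two-sided permutation test of the libraries (p = 0.743, unadjusted, where the smallest possible p is 0.0286), 1 of 18 such tests over all comparisons. Ptch1 followed the same libraries, with 1.49, 0.0184, 2.4 and 0.0 RPKM in healthy and 0.0688, 0.0, 1.11 and 3.98 RPKM in myeloma-bearing mice, so that libraries N, I and J held both target genes above 1 RPKM and library L held Ptch1 alone.

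**Figure D3:**
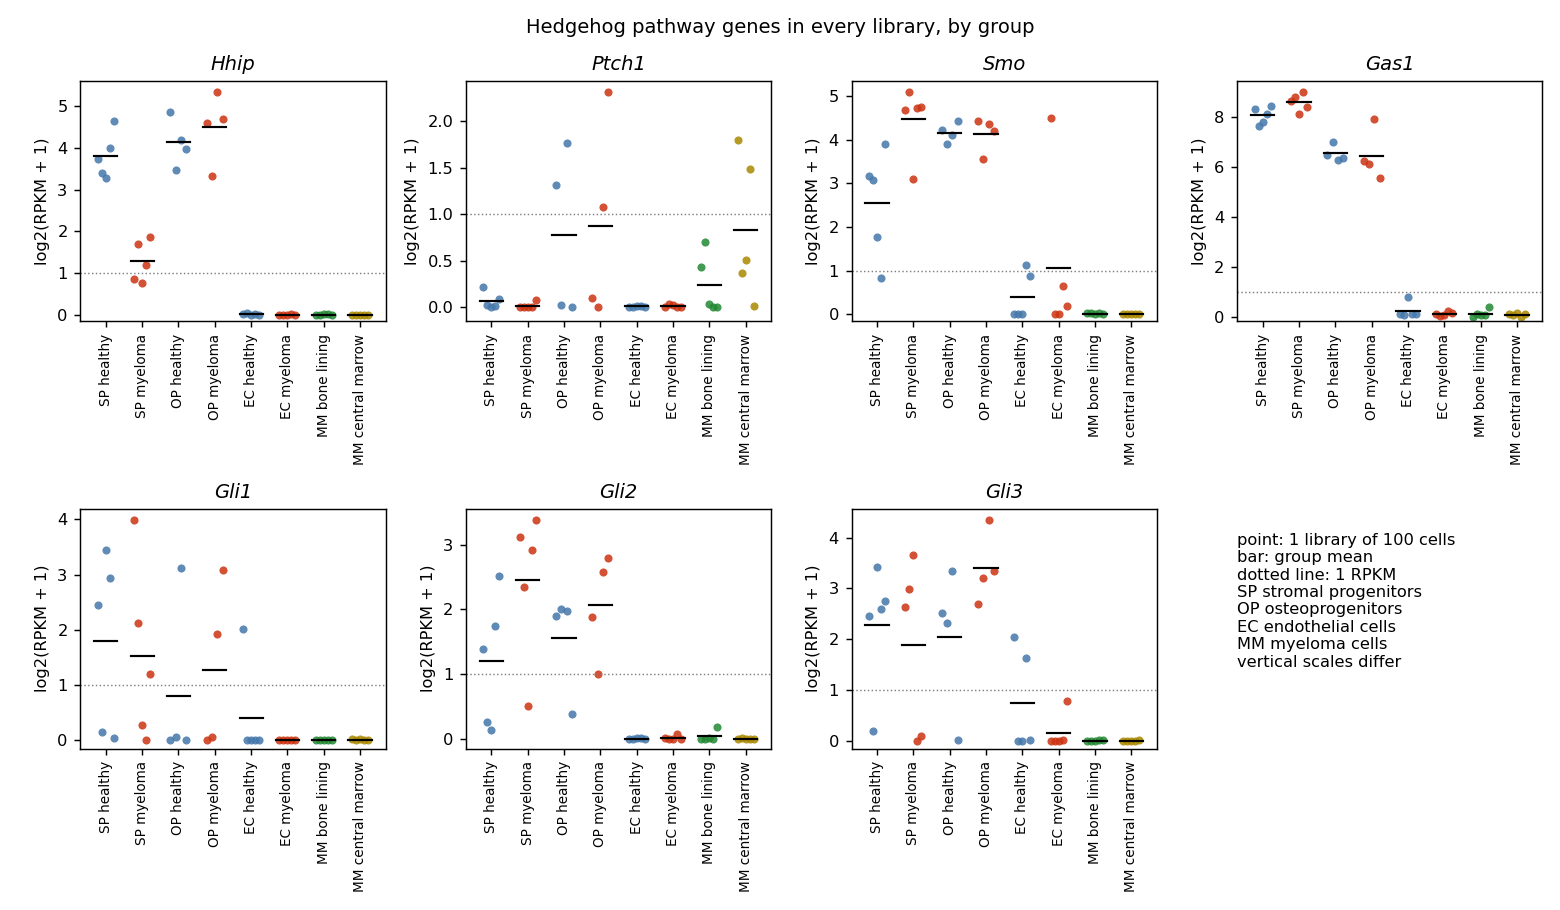
Values of the 7 measured genes on the log2(RPKM + 1) scale (vertical axes, which differ between panels) in the 8 groups (horizontal), each point 1 library of 100 cells and each bar the group mean, with 1 RPKM marked by a dotted line. Gas1 is above 1 RPKM in every and Smo in all but 1 of the mesenchymal libraries, Hhip is lowest among the mesenchymal groups in myeloma-bearing stromal progenitors, Gli1 and Ptch1 are above 1 RPKM in some libraries of a group and near 0 in others, and Ptch1 alone exceeds 1 RPKM in myeloma cells.

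Osteoprogenitors were next set against stromal progenitors of the same kind of mice. Hhip values of these comparisons are those given above, and it is left out of the tests because they use stromal progenitor libraries. In healthy mice 1 of the 5 other members that passed the filter was called, beside 3.58% of all genes tested, and in myeloma-bearing mice 1 of 5, beside 3.35%. The called gene was Gas1 in both. Gas1 changed from 277 ± 64.7 RPKM (SD, n = 5) in stromal progenitors to 95.3 ± 23.4 (n = 4) in osteoprogenitors of healthy mice, a log2 difference of -1.53 ± 0.33 (SE) with an adjusted p of 0.0233 in limma. In myeloma-bearing mice it changed from 397 ± 89.6 to 109 ± 92.0 RPKM (-2.14 ± 0.48, adjusted p = 0.0249 in limma), with no overlap between the cell types in either kind of mice. The share of all genes without overlap was not counted for these cell types. Both calls were lost in limma without the trend of variance on mean, with the same differences, and the second was also lost without osteoprogenitor library J (difference -1.84). Leaving out stromal progenitor library L or E, which carried neutrophil markers, changed neither call.

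The other members did not pass this test. Smo in healthy mice had the largest difference among them, 1.62 ± 0.81 (SE) with an adjusted p of 0.426 in limma. In myeloma-bearing mice it was -0.33 ± 0.7 (adjusted p = 0.917 in limma), and -0.18 without stromal progenitor library E. Gli3 had a difference of 1.52 ± 1.02 in myeloma-bearing and -0.23 ± 0.96 in healthy mice. The former was 1.8 without stromal progenitor library E, and the latter had no stable sign, being -0.75 and 0.05 without stromal progenitor library L and M and 0.45 without osteoprogenitor library O. Ptch1 was removed by the filter and exceeded 1 RPKM only in osteoprogenitors here, so it is given without a test. Its differences on the log2(RPKM + 1) scale were 0.86 in myeloma-bearing mice, with osteoprogenitor library G at 0, and 0.71 in healthy mice, and the cell types overlapped in both.

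**Figure D4:**
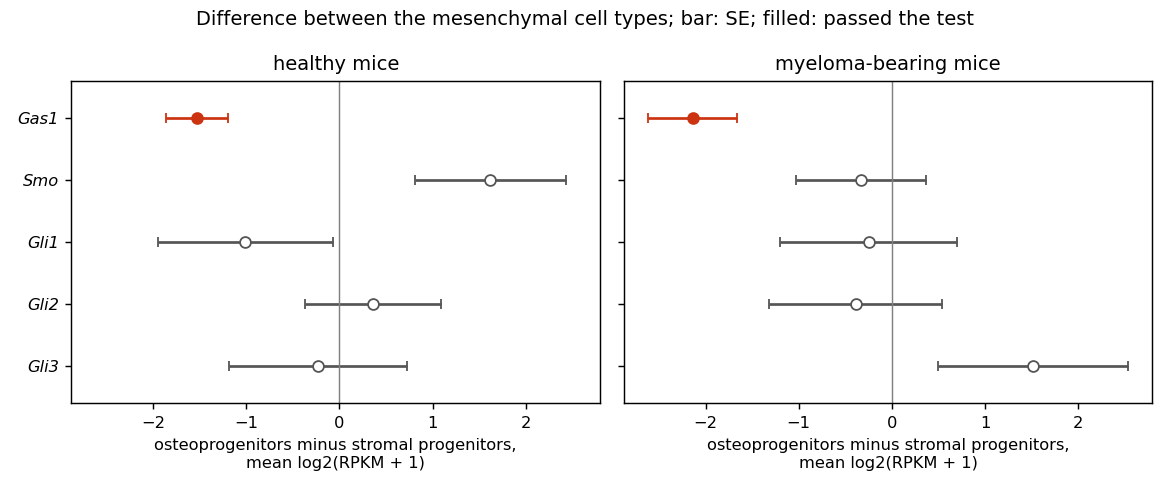
Difference in mean log2(RPKM + 1) between osteoprogenitors and stromal progenitors (horizontal) for Gas1, Smo, Gli1, Gli2 and Gli3 (vertical) in healthy (left) and myeloma-bearing mice (right), with SE as bars and filled red points for genes that passed the test. Gas1 lies at -1.53 and -2.14 and is the only filled point in each panel, and Smo lies at 1.62 on the left and -0.33 on the right.

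Most endothelial libraries held little of any member. Gas1, the most abundant member in the stroma, did not exceed 0.737 RPKM in the 10 endothelial libraries, and Ptch1 and Gli2 did not exceed 0.0258 and 0.0555. Single libraries departed from this. Library D of the myeloma-bearing group had Smo at 21.5 RPKM (1598 reads) when the other 9 endothelial libraries had at most 1.19, and library C of the healthy group had Gli1 at 3.04 RPKM and Gli3 at 3.13, when Gli1 was listed at 0 in the other 9. Gli3 was also at 2.12 RPKM in healthy library N and at 0.733 in myeloma-bearing library J.

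Between myeloma-bearing and healthy endothelial cells none of the 7 members passed the filter, and 0 of 7880 genes were called in limma (0.0%). An unadjusted p below 0.05 in limma was held by 414, near the number that threshold gives where nothing differs. Voom-limma on all libraries called 251. Exact two-sided permutation tests of the members with a library above 1 RPKM gave unadjusted p-values of 0.254 for Gli3, 0.802 for Smo and 1.0 for Gli1, where the smallest possible p is 0.00794.

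Against the mesenchymal cells Gas1 and Smo were lower in endothelial cells in all 4 comparisons, while the filter left Ptch1 out of all 4 and Gli1 out of 3, and Gli1 was not called by limma in the other. Voom-limma on all 38 libraries, which keeps every gene, called Gli1 in 3 and Ptch1 in 2 of the 4. A member that passes the filter here does so mainly through the mesenchymal libraries, so the counts and differences below are a description. In healthy mice 2 of 4 members tested, Gas1 and Smo, were lower in endothelial cells than in stromal progenitors (17.3% of all genes were called in either direction), and 3 of 4, Hhip, Gas1 and Smo, were lower than in osteoprogenitors (16.5%). In myeloma-bearing mice it was 3 of 3 against stromal progenitors, Gas1, Smo and Gli2 (16.1%), and 4 of 4 against osteoprogenitors, Hhip, Gas1, Smo and Gli3 (17.7%). For Gas1 the log2 difference was between -6.31 and -8.47 in these 4 comparisons, and its groups did not overlap in any of them. Overlap was not counted over all genes in these comparisons.

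Hhip, which was above 1 RPKM only in the osteoprogenitor libraries of these comparisons, had differences between endothelial cells and osteoprogenitors of -4.12 ± 0.68 (SE) in healthy and -4.49 ± 0.7 in myeloma-bearing mice. The size of such differences depends on the pseudocount, since one side is near 0, and with a pseudocount of 0.1 they were -7.24 and -7.72. The corresponding log2 differences of Smo were -3.76 ± 0.73 and -3.07 ± 1.01 against osteoprogenitors, and -2.14 ± 0.73 and -3.4 ± 0.98 against stromal progenitors. With 4 osteoprogenitor libraries per group, leaving out any of them removed genes expressed in osteoprogenitors alone from the test. In healthy mice 1 member then remained called. In myeloma-bearing mice 0 did, as Smo stayed in the test but lost its call. Smo was the member whose call was most easily lost, in myeloma-bearing mice against osteoprogenitors when any library other than endothelial library D was left out (differences -2.8 to -3.26), and in healthy mice against stromal progenitors without endothelial library C, L or M or stromal progenitor library C, L or O (-1.8 to -2.04). Gli3 in healthy endothelial cells against stromal progenitors (-1.54 ± 0.79, adjusted p = 0.258 in limma) was called when stromal progenitor library L was left out (-2.06) and in both fits of all 38 libraries. Gli2 was above 1 RPKM in 4 stromal progenitor libraries of myeloma-bearing mice, and leaving out any of them, E included, took it out of the test. In the 3 comparisons where the filter removed it outright its differences were -1.21, -1.56 and -2.05, without overlap between the cell types. How many of all genes also lacked overlap there was not counted. Over all comparisons 9 of the 18 exact permutation tests had an unadjusted p below 0.05, all of them between cell types, where the member had entered through the cell type in which it was above 1 RPKM, so they support no difference.

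Among the members only Ptch1 exceeded 1 RPKM in myeloma cells, in 2 of 10 libraries, both from the central marrow. It lay below 0.25 RPKM in 4 of the 10. In the central marrow Ptch1 was at 2.48, 0.292, 0.415, 1.79 and 0.0109 RPKM in libraries D, E, G, I and J, and in the bone lining at 0.35, 0.626, 0.0205, 0.0 and 0.0. The higher values were thus in the central marrow, in libraries D and I, but the groups overlapped (difference, bone lining minus central marrow, -0.6, exact two-sided permutation p = 0.175, unadjusted). The largest value of any other member in these 10 libraries was 0.335 RPKM for Gas1 (14 reads), followed by 0.134 for Gli2 (12 reads). None of the 7 members passed the filter between the locations, where 18 of 8857 genes were called (0.203%). Against stromal progenitors of myeloma-bearing mice, bone lining myeloma cells had lower Gas1 (-8.46 ± 0.42), Smo (-4.45 ± 0.53) and Gli2 (-2.42 ± 0.54), 3 of 3 members tested, in a comparison in which 42.4% of all genes were called in either direction. These calls too passed the filter through the stromal libraries, and without library E, which carried neutrophil markers, Gli2 left the test while Gas1 and Smo remained called.

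The wider pathway was described with lists of 67 further genes, of which 56 were analysed here. Among ligands Dhh (Desert hedgehog) was measured, at 0 in all 10 stromal progenitor libraries and at most at 4.2 RPKM in osteoprogenitors. In endothelial cells it reached 9.49 RPKM in healthy mice (median 0.818, with 2 of 5 libraries above 1 RPKM) and was at 0 in all 5 libraries of myeloma-bearing mice. Dhh did not pass the filter in any comparison, and voom-limma on all 38 libraries called it between healthy endothelial cells and stromal progenitors. Shh and Ihh were not analysed here. Ligand release and spread was represented by Adam17, a sheddase, with a mean of 24.4 RPKM over the 28 niche libraries, and Gpc6, a glypican, with 13.5 RPKM. The co-receptors Boc and Cdon were abundant, at 43.5 and 37.3 RPKM. In stromal progenitors Cdon spanned 57.9 to 119 RPKM in healthy and 51.6 to 190 in myeloma-bearing mice, and Boc 57.5 to 107 and 37.9 to 224, so both overlapped between the groups as Gas1 did.

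None of the 42 listed genes that passed the filter in stromal progenitors was called between myeloma-bearing and healthy mice, where 0.0% of all genes were called, and their median difference was 0.17 against 0.0 over all genes. Without both libraries that carried neutrophil markers 0 of 40 were called (0.0124% of all genes), with a median of -0.07 against -0.06. In osteoprogenitors 0 of 44 were called in limma (1 at an unadjusted p below 0.05, 0 by voom-limma), beside 0.0115% of all genes, with a median of -0.01 against -0.03. In endothelial cells 0 of 32 were called in limma (3 at an unadjusted p below 0.05), beside 0.0% of all genes, with a median of 0.32 against 0.07, and voom-limma on all libraries called 2, Csnk1a1 and Disp2, beside 1.89% of all genes. Between the myeloma cell locations 0 of 31 were called in limma (2 at an unadjusted p below 0.05, 0 by voom-limma), beside 0.203% of all genes, with a median of 0.07 against -0.01. The cilium genes Ift27 and Arl13b (means of 73.3 and 16.2 RPKM), the kinase subunits Csnk1a1 and Prkar1a that act on Gli proteins (102 and 95.9 RPKM) and the target genes Pthlh and Ccnd2 (74.3 and 25.3 RPKM) were the most abundant of their lists. In stromal progenitors their log2 differences lay between -1.41 for Arl13b and 0.82 for Ccnd2, which were -2.22 and 0.66 without both libraries that carried neutrophil markers.

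Between the mesenchymal cell types 1 of 43 listed genes tested was called in healthy mice (2.33%, against 3.58% of all genes), namely Cdon. It changed from 82.6 ± 22.6 RPKM (SD, n = 5) in stromal progenitors to 25.8 ± 8.97 (n = 4) in osteoprogenitors of healthy mice (-1.66 ± 0.44, adjusted p = 0.0682 in limma). The call held without stromal progenitor library L (-1.78) and osteoprogenitor library O (-1.86), but was lost when any of the other 7 libraries was left out (-1.51 to -1.7), in the fit of all 38 libraries, without the trend, under upper quartile scaling and with the letter as a block. Voom-limma on all libraries called Scube2 beside Cdon. In myeloma-bearing mice 0 of 42 were called in limma, with and without stromal progenitor library E (4 at an unadjusted p below 0.05, and 3 called by voom-limma on all libraries, Cdon, Gpc6 and Arrb2). Limma did call Cdon there without osteoprogenitor library I (-2.61, adjusted p = 0.0801) and in the fit of all 38 libraries (-2.12, adjusted p = 0.0478). Cdon and Boc were lower in endothelial cells than in either mesenchymal population in both kinds of mice (log2 differences of -3.81 to -5.98 for Cdon and -3.26 to -6.07 for Boc). Both passed the filter mainly through the mesenchymal libraries. A listed gene can enter such a test through the cell type in which it is high, so these differences and the counts below are a description. Of the listed genes 1 was higher and 5 were lower in endothelial cells than in stromal progenitors of healthy mice, among 39 tested (15.4%, against 17.3% of all genes), and without stromal progenitor library L it was 0 and 5 of 38 (13.2% against 15.4%). In myeloma-bearing mice 3 were higher and 8 lower, among 41 (26.8% against 16.1%), but without stromal progenitor library E these were 2 and 3 of 34 (14.7% against 13.5%), and 4 to 8 were called in all without any 1 library. Against osteoprogenitors 1 was higher and 8 were lower of 39 in healthy mice (23.1% against 16.5%), and 4 were higher and 6 lower of 38 in myeloma-bearing mice (26.3% against 17.7%). These counts of 9 and 10 fell to 2 to 4 without any 1 healthy osteoprogenitor library and 6 without endothelial library M, and to 4 to 6 without myeloma-bearing osteoprogenitor library G, I or J. In myeloma cells of the bone lining 3 were higher and 9 lower than in stromal progenitors, among 43 (27.9% against 42.4%), and 8 of 36 were called without stromal progenitor library E (22.2% against 41.2%).

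Over all 38 libraries the 5 genes whose log2(RPKM + 1) values were most like those of Hhip, among 12683 genes above 1 RPKM in at least 4 libraries, were Scrg1, Col11a1, Col2a1, Hapln1 (Pearson's r = 0.92 each) and Epyc (r = 0.91). The points share cell types and libraries, so these values are a description. Col2a1 is also on the chondrocyte marker list. In stromal progenitors the ranges of these genes overlapped between the mice. Hhip had been selected on this contrast, so its clearer separation there is no evidence. Differences on the log2(RPKM + 1) scale, myeloma-bearing minus healthy, were -1.25 for Scrg1, 0.04 for Col11a1, -0.41 for Col2a1, 0.35 for Hapln1 and -1.22 for Epyc. Scrg1 was at 651 to 2050 RPKM in healthy and 103 to 1070 in myeloma-bearing mice, Col11a1 at 20.8 to 52.8 and 11.3 to 61.8, Col2a1 at 8.99 to 260 and 11.8 to 207, Hapln1 at 20.0 to 82.5 and 26.6 to 88.1, and Epyc at 46.6 to 161 and 11.7 to 318. For Gli1 the likeness was lower, with r between 0.71 and 0.76 for Wdr6, Tmem30b, Sgcd, Arhgap22 and Athl1. By rank correlation 2 of the 5 genes remained among the 5 most like Hhip and 0 among those most like Gli1.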

How the data were processed

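The authors sorted cells of the bone lining by FACS, made SmartSeq2 libraries from polyA RNA and sequenced 50 bp single-end reads. Per the labels and methods, reads were aligned to GRCm38 (mm10, UCSC transcripts) with STAR 2.4.0 and counted with featureCounts (Subread 1.4.5-p1). Genes above 1 CPM in at least 4 samples were kept, and the RPKM values were made by the authors with edgeR and deposited. Duplicates were not stated to be removed for these libraries and no molecular identifiers were used, so duplicate reads may remain in the values.

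From the RPKM values, log2(RPKM + 1) was compared with limma 3.58.1 (R 4.3.3; lmFit and eBayes with trend) using only the libraries of the 2 groups and the genes that 4 or more of them held above 1 RPKM, with an adjusted p below 0.1 over all genes tested and an absolute log2 difference above 1. Members removed by this filter that had a library above 1 RPKM were compared by exact permutation over libraries. Whole reads were recovered from the RPKM steps for all 13260 genes and used for read numbers and for voom-limma as an alternative. Voom-limma with these thresholds was the study's own test. Between mice it reported 82 genes in stromal progenitors, 28 in osteoprogenitors and 251 in endothelial cells. The fit of all 38 libraries gave these numbers too, and 12 genes between myeloma locations, more than the study reported. Both steps were tested on simulated data. All comparisons of myeloma-bearing with healthy mice use each library once, but comparisons between cell types share libraries with them.

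Members and lists were chosen with earlier results of these data known. Named genes were all members, the listed pathway genes called between mice or otherwise the 2 of each list with the highest mean RPKM over the 28 niche libraries, and the 5 genes most like Hhip and Gli1. The genes called between cell types, Cdon among them, were named after their values were seen. Lists were ligands, ligand release and spread, further receptors and co-receptors, cilium-based signal transfer, Gli processing and turnover, further target genes and Hhip-like genes. Of the last, Hhipl2 did not exceed 15.5 RPKM in stromal progenitors and 11.8 in osteoprogenitors. Marker lists for macrophages and osteoclasts summed to 103 to 642 RPKM in healthy and 216 to 510 in myeloma-bearing stromal progenitors, and the erythroid list was not analysed here. Alternatives were another pseudocount (0.1), no filter or 2 libraries in it, all 38 libraries in a single fit, no trend, upper quartile scaling, voom-limma, the letter as a block and leaving out each library. Figures used Python 3.11.15 and matplotlib 3.10.9. Promoters came from RefSeq (GRCm38.p6) and positions from GENCODE on GRCm38.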

Additional observations from a re-analysis of the deposited data

Results flagged for a closer look

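Of 31 groups of 4 or 5 libraries with a member above 1 RPKM, 6 held a library far from the rest by Dixon's criterion on RPKM. Chance meets it in about 1 of 20 groups of normally distributed values, but these RPKM values were skewed, with many near 0. How often chance meets it here was not tested, so the 6 libraries are given as a description. These were Gli1 at 14.9 RPKM in stromal progenitor library D of myeloma-bearing mice, Gli1 at 7.69 RPKM in osteoprogenitor library N of healthy mice and Gli1 at 3.04 RPKM in endothelial library C of healthy mice, where the other 4 libraries were at 0. Smo was at 21.5 RPKM in endothelial library D of myeloma-bearing mice, on 1598 reads. Gas1 was at 246 RPKM in osteoprogenitor library I of myeloma-bearing mice, and Gli2 was low, at 0.3 RPKM, in osteoprogenitor library O of healthy mice. The causes were not tested.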

How the results depend on the processing

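Of the counts of members called, 0 included, 86 of 97 under other settings stayed within 1.5 times the value reported. Without the trend it fell from 1 to 0 for osteoprogenitors against stromal progenitors in both kinds of mice. For healthy endothelial cells against stromal progenitors it was 1 in place of 2 with no filter or one of 2 libraries. Voom-limma on all 38 libraries called 5 members in this comparison, 5 against healthy osteoprogenitors, 5 and 7 against stromal progenitors and osteoprogenitors of myeloma-bearing mice, and 5 between bone lining myeloma cells and stromal progenitors, beside 21.8%, 21.7%, 17.6%, 17.6% and 34.7% of all genes in the same fits. The last was also 5 with the 2-library filter. The cause was not tested.

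With a library left out, the count was 0 to 0 in the 4 comparisons of mice and of myeloma locations, 1 to 1 for healthy osteoprogenitors against stromal progenitors and 0 to 1 in myeloma-bearing mice, 1 to 2 and 1 to 3 for healthy endothelial cells against stromal progenitors and osteoprogenitors, 2 to 3 and 0 to 4 in myeloma-bearing mice, and 2 to 3 for myeloma cells. No difference that had passed the test changed sign. In stromal progenitors between mice Gli1 and Gli3 turned without single libraries, and Gli3 was -2.26 and -2.15 with voom-limma. In osteoprogenitors between mice Smo (-0.03) became 0.07 and Gas1 (-0.09) became 0.01 under upper quartile scaling, Gas1 was 0.01 with voom-limma on all 38, and leaving out a library gave -0.16 to 0.39 for Ptch1, -0.13 to 0.16 for Smo and -0.58 to 0.21 for Gas1. Between the mesenchymal cell types it gave -0.75 to 0.45 for Gli3 in healthy and -0.86 to 0.36 for Gli1 in myeloma-bearing mice.

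All genes called ranged over settings from 0 to 82, 0 to 28, 0 to 258 and 1 to 26 between mice (stromal progenitors, osteoprogenitors, endothelial cells) and myeloma locations, against 0, 1, 0 and 18 reported, from 214 to 646 and 206 to 567 (312 and 295 reported) between the mesenchymal cell types, and from 1111 to 2888 between endothelial and mesenchymal cells. With a library left out they fell to 181 to 197 without healthy osteoprogenitor library L, N or O and to 142 to 165 without any of the 4 of myeloma-bearing mice between the mesenchymal cell types, and against endothelial cells to 567 to 630 (1361 reported) and 850 to 964 (1533 reported) without any 1 osteoprogenitor library. Without central marrow library D 10 were called between myeloma locations. Upper quartile scaling shifted the median of all genes by up to 0.34 (myeloma cells against stromal progenitors) and added 1 member to the 4 called in myeloma-bearing endothelial cells against osteoprogenitors. The Hhip difference in stromal progenitors was -3.17 with a pseudocount of 0.1, and -3.23 and -3.25 with voom-limma. Without both libraries that carried neutrophil markers, an alternative chosen after seeing the data, it was -2.74, and 1 gene was called among all. Of the 5 genes most like Hhip and Gli1, 4 and 3 were shared over the 28 niche libraries and 2 and 0 under rank correlation. Where a group was near 0 a smaller pseudocount and voom-limma gave larger differences, -7.24 and -11.07 for Hhip in healthy endothelial cells against osteoprogenitors (-4.12 reported), -7.56 and -10.47 for Smo in myeloma cells against stromal progenitors (-4.45 reported), and with voom-limma 2.25 and 2.24 for Gli2 in stromal progenitors between mice (1.25 reported) and 3.91 and 3.83 for Gli3 between the mesenchymal cell types of myeloma-bearing mice (1.52 reported). Deviations of same-letter libraries from their group means correlated weakly (r of -0.0488 to 0.11, above 0 in 29 of 36 pairs), and in no comparison was it over 0.1 in every pair, the level set for a pairing. Even so 15 pairs correlated best with their own letter, where 7.6 would if every letter were as likely, and in 1 of 8 comparisons all did. With the replicate block 1 member in place of 2 was called in healthy endothelial cells against stromal progenitors and 3 in place of 4 in myeloma-bearing endothelial cells against osteoprogenitors, each without Smo, and no other count of members moved. A read stood for at most a few hundredths of an RPKM of a member.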
